A study of Mus musculus with 8 samples.

Results

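The transcripts of antibody constant regions, of the joining chain and of the receptor that carries IgA across the gut epithelium were followed in the intestine of 8 C57BL/6 mice. The tested animals were 4 recipients of Klebsiella, a genus that holds gut-dwelling and disease-causing species. The others were 4 recipients of Lactobacillus, a genus of lactic acid bacteria. Every mouse gave 1 library of total RNA from frozen intestine, and the libraries are called here by recipient group and mouse number. The gut segment, the age and sex of the mice, the strain and amount of bacteria, the time after transfer and any treatment the groups shared are not stated in the labels. No untreated mouse was analysed here, so every difference is between recipients of different bacteria. The set held 10 of 49585 gene identifiers and was chosen by name, for what the genes encode. It holds 6 heavy chain constant regions (Igha, Ighm, Ighg1, Ighg2b, Ighg2c and Ighg3), the light chain constant regions Igkc and Iglc2, the joining chain gene Jchain, and Pigr. Fragments assigned to genes (reads or read pairs, which the files do not say) came to between 15783925 and 21603065 per library, and antibody and Jchain transcript took between 0.318% and 1.29% of them.

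The gut wall holds more antibody-secreting plasma cells than most tissues, and most of them make IgA. An antibody is built of paired heavy and light chains. The heavy chain constant region sets the class, and a B cell changes class by joining its variable segment to another constant region. IgA leaves the plasma cell as a dimer whose monomers are tied together by the J chain, the product of Jchain. The polymeric immunoglobulin receptor, the product of Pigr, sits on the basal side of epithelial cells, binds J chain-containing IgA and IgM, and releases them into the gut lumen with its own extracellular piece attached. IgG, made by the 4 Ighg genes, has no J chain and is not carried by this receptor.

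The heavy chain genes lie in a cluster on chromosome 12, with Igha at chr12:113254830-113260236 and Ighm at chr12:113418558-113422730. Igkc lies at chr6:70726435-70726966, Iglc2 at chr16:19198396-19200351, Jchain at chr5:88519809-88527891 and Pigr at chr1:130826684-130852249 (GRCm38, whole annotated genes). The last 60 coding bases of the secreted form, without the stop codon, are given for 3 of the heavy chains from GENCODE M21 transcripts (build GRCm38, chromosome 12, minus strand, written 5′ to 3′). They are shown because they hold the J chain attachment, and capitals mark the codon before the last one. In Igha and Ighm it is a cysteine codon, and this cysteine of the tailpiece bonds to the J chain, while Ighg1 has a glycine codon there and no tailpiece.
Igha: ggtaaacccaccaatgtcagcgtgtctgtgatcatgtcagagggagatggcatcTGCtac
Ighm: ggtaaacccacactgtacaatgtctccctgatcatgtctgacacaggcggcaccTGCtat
Ighg1: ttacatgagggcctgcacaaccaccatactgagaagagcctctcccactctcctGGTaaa

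Igha was the most abundant heavy chain transcript in every mouse. Its level, in fragments scaled by gene length and library size (FPKM), was 1013, 1102, 882 and 3932 in Klebsiella mice 1 to 4, against 1937, 2329, 1343 and 1263 in Lactobacillus mice 1 to 4. Klebsiella mouse 4 stood 3.57-fold above the next Klebsiella mouse, while the other 3 Klebsiella mice lay below every Lactobacillus mouse. The groups therefore overlapped. The mean was 1732 ± 1469 FPKM in Klebsiella and 1718 ± 506 FPKM in Lactobacillus recipients (SD over n = 4 each). On the log2(FPKM + 0.5) scale the difference of Klebsiella minus Lactobacillus was -0.25 (SE 0.455), with a limma adjusted p of 0.919 over 16865 genes. Without Klebsiella mouse 4 it was -0.74 (limma adjusted p 0.909), without Klebsiella mouse 3 it was -0.023 (0.990), and without both Klebsiella mouse 3 and Lactobacillus mouse 2 it turned to 0.14 (0.958).

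**Figure D1:**
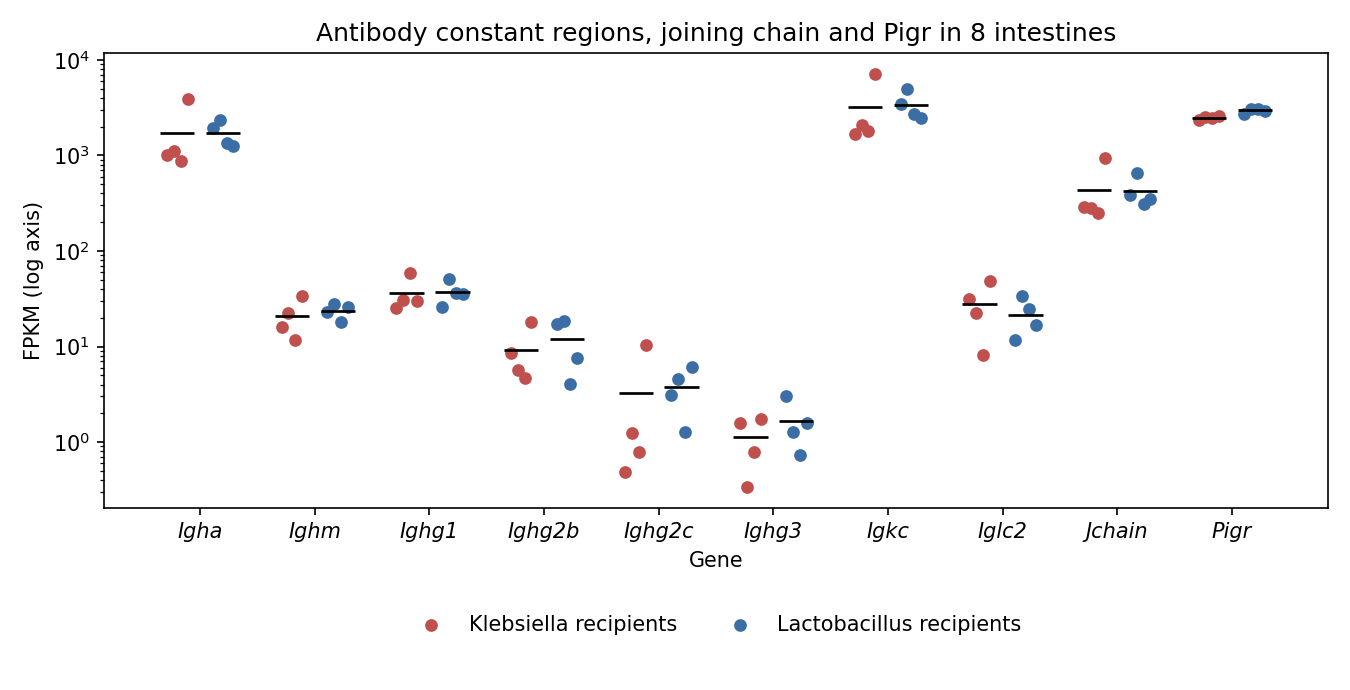
Level of the 10 genes in FPKM on a log axis, with 1 point for each mouse (red for Klebsiella, blue for Lactobacillus recipients) and a line at the group mean (n = 4 each). Igha, Igkc and Jchain each have 1 high Klebsiella point, mouse 4, while Pigr lies in a narrow band between 2333 and 3084 FPKM.

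Set against each other, the 10 genes spanned a wide range. Their medians over the 8 mice ran from 2667 FPKM for Pigr and 2584 for Igkc through 1303 for Igha and 331 for Jchain to 33.1 for Ighg1, 23.5 for Iglc2 and 22.7 for Ighm. Ighg2b had a median of 7.98 FPKM, Ighg2c of 2.20 and Ighg3 of 1.42. Neighbours in this order kept it in all 8 mice except for 4 pairs. Pigr was above Igkc in 5 of 8 mice, Ighg1 above Iglc2 in 6, Iglc2 above Ighm in 5 and Ighg2c above Ighg3 in 6. The order also rests on the gene lengths that the authors divided by. Igha was given 1820 bases, a mean over its annotated transcripts, although the secreted form holds 1100. Pigr was given 1791 bases, although its full-length transcript holds 3849. Per base of these transcripts, Igha came to 1676, 1822, 1460 and 6505 FPKM in Klebsiella mice 1 to 4 and to 3205, 3854, 2222 and 2090 in Lactobacillus mice 1 to 4. Pigr then came to 1086, 1165, 1159 and 1205 FPKM in Klebsiella and to 1277, 1431, 1435 and 1369 in Lactobacillus mice, below Igha in all 8.

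No gene of the set differed between the recipient groups past the threshold. At a limma adjusted p under 0.05, 0 of the 10 genes were called, where 0% of the 16865 genes tested were. At an unadjusted p under 0.05 the count was also 0 of 10, where 6.07% of all genes passed. All 10 genes passed the filter on low values. The log2 difference was negative for 9 of them and positive for Iglc2 alone, with a median of -0.26 beside -0.017 for all genes. Without Klebsiella mouse 3 and Lactobacillus mouse 2, the differences of Igha, Ighm, Ighg2b, Igkc and Jchain turned positive, to between 0.035 and 0.28. The groups were separate for 1 of the 10, Pigr, where 2.99% of all genes had separate groups. The antibody genes vary together between mice, so these 10 directions are not independent of each other. In RNA from whole tissue, fewer cells of a type and less RNA per cell cannot be told apart.

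Igha made up at least 92.0% of the summed FPKM of the 6 heavy chain genes in each mouse. With the IgD and IgE constant regions Ighd and Ighe also counted, the lowest share was 91.5%, in Klebsiella mouse 3. As a percent of the summed FPKM of the 6 heavy chain genes, Igha came to 95.1, 94.8, 92.0 and 97.7 in Klebsiella mice 1 to 4 and to 96.4, 95.7, 95.7 and 94.3 in Lactobacillus mice 1 to 4. The lowest and the highest share were thus both in Klebsiella mice, the third and the fourth. The mean was 94.9% ± 2.30 in Klebsiella and 95.5% ± 0.876 in Lactobacillus recipients (SD over n = 4 each), a difference of -0.64 percentage points by a two-sided exact permutation test (p 0.629, adjusted p 0.816 over 8 shares and ratios). In reads, the Wilson 95% intervals of the Igha share reached from 92.1% to 92.8% in Klebsiella mouse 3 and from 97.9% to 98.0% in Klebsiella mouse 4. These intervals cover counting error only. The spread between mice was far wider than that error. The shares also depend on the gene lengths used. Per base of the secreted forms, Igha took between 92.6% and 98.1% over the 8 mice. Ighm then took between 0.543% and 1.26%, and the 4 IgG genes between 1.31% and 6.61%.

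Ighm, the constant region of IgM, which naive B cells and unswitched plasma cells carry, was at 16.04, 22.4, 11.7 and 33.7 FPKM in Klebsiella mice 1 to 4 and at 22.9, 28.1, 17.9 and 25.8 in Lactobacillus mice 1 to 4. The groups overlapped, with Klebsiella mice at both ends. Its share of heavy chain transcript was 1.51%, 1.93%, 1.22% and 0.837% in Klebsiella and 1.14%, 1.15%, 1.28% and 1.93% in Lactobacillus mice. The smallest share was in Klebsiella mouse 4, which had the highest Ighm level and a still higher Igha level. The share averaged 1.37% ± 0.462 in Klebsiella and 1.37% ± 0.373 in Lactobacillus recipients (SD over n = 4 each; exact permutation p 1).

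The 4 IgG constant regions together took 3.38%, 3.29%, 6.73% and 1.502% of heavy chain FPKM in Klebsiella mice 1 to 4, against 2.47%, 3.11%, 2.99% and 3.76% in Lactobacillus mice 1 to 4. Klebsiella mouse 3 had the largest share and Klebsiella mouse 4 the smallest, so that the Lactobacillus mice lay between them. The mean was 3.73% ± 2.18 in Klebsiella and 3.08% ± 0.530 in Lactobacillus recipients (SD over n = 4 each), a difference of 0.64 points (exact permutation p 0.714, adjusted p 0.816).

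**Figure D2:**
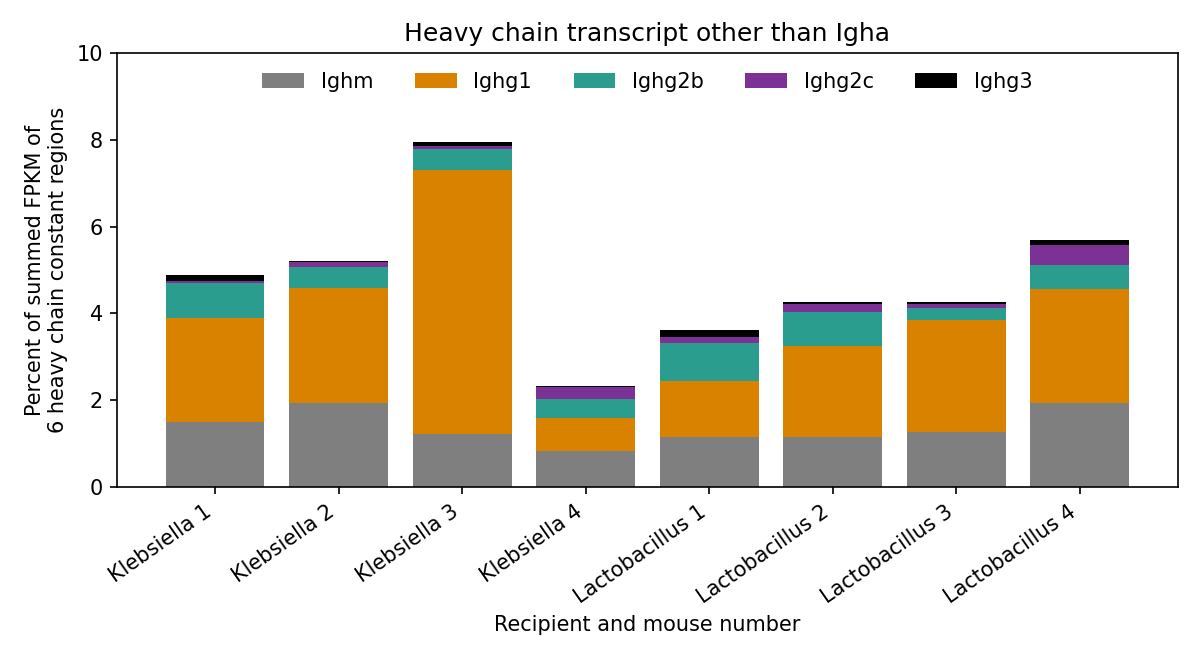
Stacked bars of the heavy chain FPKM that is not Igha, as a percent of the summed FPKM of the 6 heavy chain genes, 1 bar for each mouse. Ighg1 (orange) is the largest piece in Klebsiella mouse 3, at 6.07%, and Klebsiella mouse 4 has the lowest bar.

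Ighg1, the constant region of IgG1, was the most abundant IgG gene in all 8 mice. It stood at 25.5, 30.9, 58.2 and 30.2 FPKM in Klebsiella mice 1 to 4 and at 26.2, 51.1, 36.0 and 35.2 in Lactobacillus mice 1 to 4. Klebsiella mouse 3 and Lactobacillus mouse 2 were the highest of their groups, the first of them 1.88-fold above the next Klebsiella mouse. Ighg1 made up 70.8%, 81.0%, 90.2% and 49.9% of IgG transcript in Klebsiella mice and 52.7%, 67.6%, 85.7% and 69.9% in Lactobacillus mice. Klebsiella mouse 3 had the highest Ighg1 level of the 8 and also the lowest Igha level. In Lactobacillus recipients mouse 2 led both genes. The log2 difference of Ighg1 between the groups was -0.07 (SE 0.273, limma adjusted p 0.968).

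Ighg2b, which encodes the IgG2b constant region, was at 8.46, 5.67, 4.71 and 18.1 FPKM in Klebsiella mice 1 to 4 and at 17.3, 18.7, 4.02 and 7.50 in Lactobacillus mice 1 to 4. In each group it was high in some mice and low in others, and the groups overlapped over almost their whole range (log2 difference -0.30, SE 0.535, limma adjusted p 0.917). Ighg2c encodes the IgG2 class that C57BL/6 mice carry in place of IgG2a. It was at 0.491, 1.25, 0.792 and 10.46 FPKM in Klebsiella mice 1 to 4, from 9, 28, 15 and 211 fragments, and at 3.12, 4.52, 1.27 and 6.09 FPKM in Lactobacillus mice 1 to 4, from 58, 104, 32 and 124 fragments. Klebsiella mouse 4 stood 8.34-fold above the next Klebsiella mouse, and the other 3 Klebsiella mice lay below the lowest Lactobacillus mouse, mouse 2 of them only just. The exact Poisson 95% intervals of Klebsiella mouse 2, at 0.833 to 1.81 FPKM, and of Lactobacillus mouse 3, at 0.872 to 1.80 FPKM, overlapped almost fully. The difference was -0.78 on the log2 scale (SE 0.736, limma adjusted p 0.823), and -1.54 without Klebsiella mouse 4 (limma adjusted p 0.909).

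Ighg2c was thus the heavy chain gene with the widest range, 21.3-fold between the lowest and the highest mouse, where Igha spanned 4.46-fold and Ighg1 2.28-fold. Its share of IgG transcript was 1.36%, 3.28%, 1.23% and 17.3% in Klebsiella and 6.27%, 5.99%, 3.03% and 12.1% in Lactobacillus mice. Ighg3, the constant region of IgG3, was the lowest of the set. It was at 1.58, 0.337, 0.793 and 1.76 FPKM in Klebsiella mice 1 to 4 and at 3.06, 1.26, 0.727 and 1.58 in Lactobacillus mice 1 to 4, from 7 to 53 fragments. The groups overlapped, and counts this low leave each value with a wide counting error (log2 difference -0.41, SE 0.402, limma adjusted p 0.828). Of the constant regions outside the set, Ighd, the IgD constant region of naive B cells, was at 4.98 to 10.4 FPKM in Klebsiella and 4.22 to 11.6 in Lactobacillus mice. Ighe, the IgE constant region, was at 0.139 to 0.674 FPKM in Klebsiella and 0.0834 to 0.555 in Lactobacillus mice, from at most 16 fragments.

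The kappa constant region Igkc followed Igha. It was at 1659, 2079.7, 1816 and 7180.5 FPKM in Klebsiella mice 1 to 4 and at 3458, 4954, 2688 and 2481 in Lactobacillus mice 1 to 4. As for Igha, Klebsiella mouse 4 was the highest of all mice and the other 3 Klebsiella mice lay below every Lactobacillus mouse. The log2 difference was -0.34 (SE 0.460, limma adjusted p 0.885), and -0.83 without Klebsiella mouse 4. The ratio of light chain (Igkc and Iglc2) to heavy chain FPKM was 1.59, 1.81, 1.90 and 1.80 in Klebsiella and 1.73, 2.05, 1.93 and 1.87 in Lactobacillus mice. Per base of the secreted heavy chain forms it came to 0.967, 1.103, 1.16 and 1.09 in Klebsiella mice. In Lactobacillus mice it came to 1.05, 1.25, 1.18 and 1.14. This ratio leaves out the lambda genes Iglc1 and Iglc3, so it does not count every light chain. Iglc1 was at 313 FPKM in Klebsiella mouse 1, where the ratio was lowest. The log2 ratio differed by -0.095 between the groups (exact permutation p 0.286, adjusted p 0.800).

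Lambda light chain was a small part in most mice, and its 3 constant region genes did not move together. Iglc2 was at 31.3, 22.6, 8.07 and 48.5 FPKM in Klebsiella mice 1 to 4 and at 11.7, 33.6, 24.5 and 16.6 in Lactobacillus mice 1 to 4. Klebsiella mice held both the lowest and the highest value, and the difference was 0.20 on the log2 scale (SE 0.517, limma adjusted p 0.948). As a percent of Igkc and Iglc2 together, Iglc2 came to 1.85, 1.08, 0.442 and 0.671 in Klebsiella and to 0.338, 0.674, 0.902 and 0.665 in Lactobacillus mice (mean 1.01% ± 0.620 in Klebsiella and 0.645% ± 0.232 in Lactobacillus recipients, SD over n = 4 each; exact permutation p 0.371, adjusted p 0.800).

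Iglc2 is nearly identical in sequence to Iglc3, another lambda constant region, and less so to Iglc1. Over 314 aligned coding bases, Iglc2 and Iglc3 differed at 11 (96.5% identity), while Iglc1 differed from Iglc2 at 85 (72.9%) and from Iglc3 at 82 (73.9%). A stretch of 60 coding bases of each gene shows where these differences fall, from GENCODE M21 transcripts (build GRCm38, chromosome 16, minus strand, written 5′ to 3′). Capitals mark the 18 bases that are not the same in all 3 genes, of which 5 differ between Iglc2 and Iglc3.
Iglc1: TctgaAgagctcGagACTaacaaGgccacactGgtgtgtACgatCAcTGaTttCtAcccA
Iglc2: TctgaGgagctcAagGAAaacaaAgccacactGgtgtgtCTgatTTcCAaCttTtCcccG
Iglc3: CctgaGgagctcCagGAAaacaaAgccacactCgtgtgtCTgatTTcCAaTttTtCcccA

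No stretch of 150 bases, the read length, of these 3 genes or of any other gene of the set was the same in another annotated gene. Shorter aligned pieces can still be shared between Iglc2 and Iglc3, so their split is less certain than that of Iglc1. Iglc1 was at 313, 30.4, 12.0 and 66.1 FPKM in Klebsiella mice 1 to 4 and at 15.95, 84.2, 50.3 and 175 in Lactobacillus mice 1 to 4. Klebsiella mouse 1 stood 4.73-fold above the next Klebsiella mouse. Iglc3 was at 2.66, 4.03, 4.34 and 6.50 FPKM in Klebsiella and at 1.11, 24.0, 66.0 and 2.65 in Lactobacillus mice, high in the second and the third Lactobacillus mouse alone.

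With Iglc1 and Iglc3 counted, lambda took 17.3%, 2.67%, 1.33% and 1.66% of light chain FPKM in Klebsiella mice 1 to 4 and 0.826%, 2.78%, 4.97% and 7.25% in Lactobacillus mice 1 to 4. Iglc1 was 90.2% of lambda in Klebsiella mouse 1 and 90.1% in Lactobacillus mouse 4, and between 35.7% and 59.3% in the other 6 mice. The variable segment Iglv1, named after its values were seen, was at 469, 51.0, 33.6 and 132 FPKM in Klebsiella mice and at 35.3, 163, 144 and 156 in Lactobacillus mice, highest in the mouse with the highest Iglc1. The limma log2 differences of Iglc1 (-0.15, SE 1.00, adjusted p 0.985) and Iglc3 (-1.02, SE 1.05, adjusted p 0.839) had errors as large as themselves or larger.

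**Figure D3:**
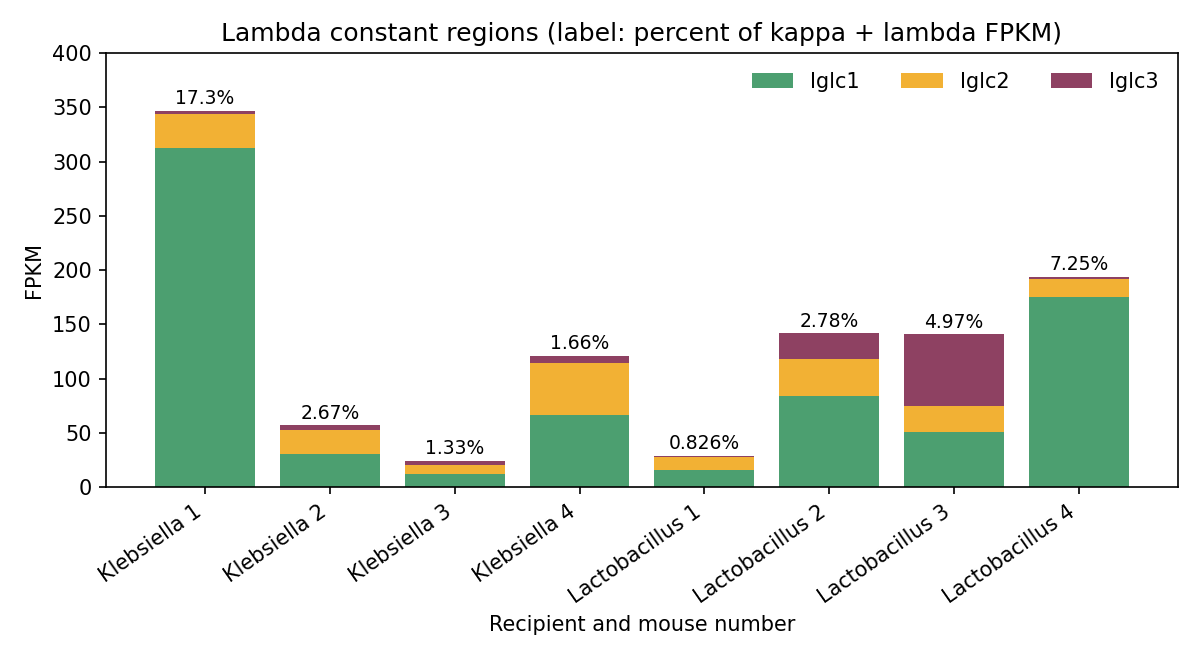
Stacked bars of the 3 lambda constant regions in FPKM, 1 bar for each mouse, with the lambda percent of all light chain FPKM printed above it. Iglc1 (green) fills most of the bar in Klebsiella mouse 1 and Lactobacillus mouse 4, and Iglc3 (purple) is large in Lactobacillus mouse 3.

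Jchain, whose product ties IgA and IgM into polymers, was at 287, 282, 251 and 935 FPKM in Klebsiella mice 1 to 4 and at 386, 648, 308 and 354 in Lactobacillus mice 1 to 4. It had the same pattern as Igha and Igkc, with Klebsiella mouse 4 on top and the other 3 Klebsiella mice below every Lactobacillus mouse. The difference was -0.13 on the log2 scale (SE 0.419, limma adjusted p 0.963), and -0.57 without Klebsiella mouse 4. For 100 FPKM of Igha there were 28.3, 25.6, 28.5 and 23.8 FPKM of Jchain in Klebsiella and 19.9, 27.8, 22.9 and 28.0 in Lactobacillus mice. This proportion stayed within a narrow range while Igha itself spanned 4.46-fold, and its log2 difference between the groups was 0.12 (exact permutation p 0.400, adjusted p 0.800). Per base of the secreted Igha form and the coding Jchain transcript it was lower, between 19.3 and 23.1 in Klebsiella and between 16.1 and 22.7 in Lactobacillus mice.

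**Figure D4:**
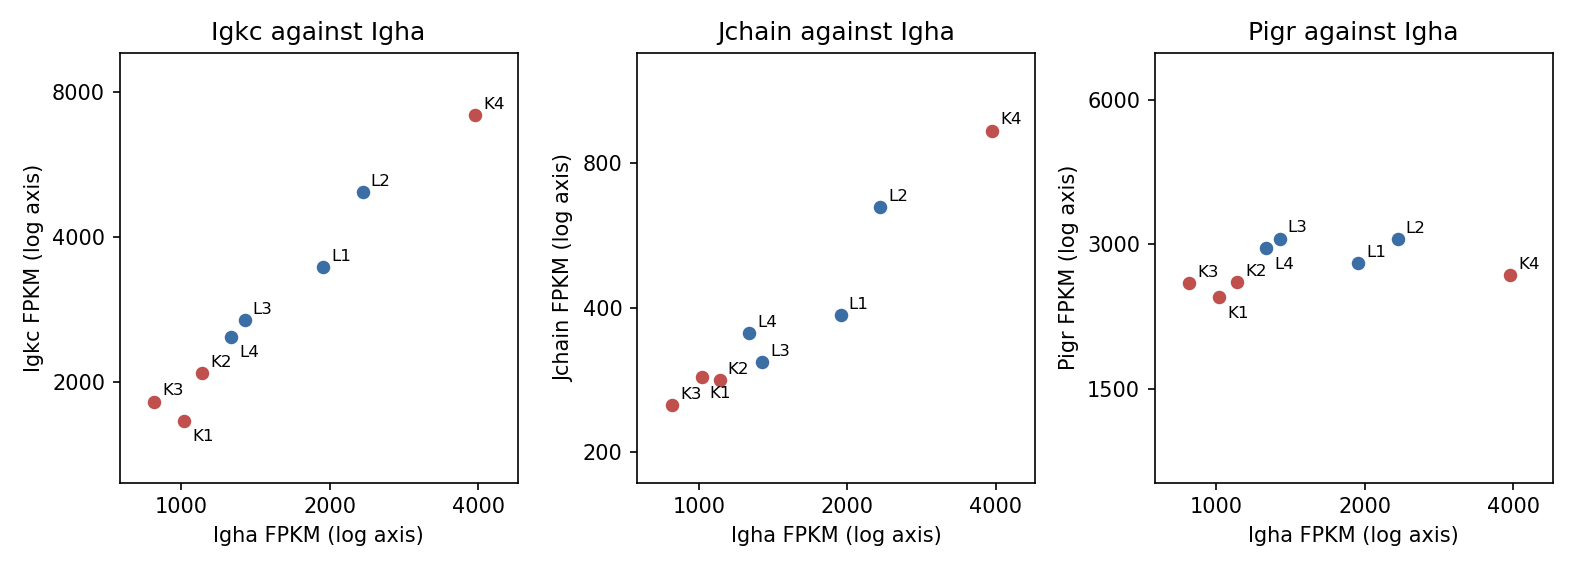
Igkc, Jchain and Pigr against Igha, each in FPKM on log axes over the same fold range, 1 point for each mouse (K1 to K4 red, Klebsiella; L1 to L4 blue, Lactobacillus). Igkc and Jchain rise with Igha over all 8 mice, while Pigr stays between 2333 and 3084 FPKM.

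Over the 8 mice, log2 Igha was related to Igkc with a Pearson r of 0.986 (exact permutation p 9.92e-05, adjusted p 0.000372 over 6 relations) and a Spearman rho of 0.976 (exact permutation p 0.000397). It was related to Jchain with r 0.968 (exact permutation p 0.000124, adjusted p 0.000372) and rho 0.952 (exact permutation p 0.00114). Without Klebsiella mouse 4 and Lactobacillus mouse 2, the mice farthest from the median of Igha, r was 0.952 for Igkc and 0.915 for Jchain (exact permutation p 0.00556 and 0.00972). Within the 4 Klebsiella mice r was 0.991 for Igkc and 0.998 for Jchain, and within the 4 Lactobacillus mice it was 0.973 and 0.864. Ighm was related to Igha more loosely, with r 0.8291 (exact permutation p 0.0103, adjusted p 0.0154) and rho 0.881 (exact permutation p 0.00724). Without the far mice r was 0.661 and no longer passed (exact permutation p 0.153, n = 6).

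The mean of the genes that mark plasma cells followed Igha within each group, and less closely over all 8 mice. Of 16 plasma cell genes tested, 6 were positive and 10 negative between the groups (median -0.099), and 0 were called. Their mean log2 level was related to Igha with r 0.919 (exact permutation p 0.00231, adjusted p 0.00461), but rho was 0.690 (exact permutation p 0.0694), and r was 0.708 without the far mice (exact permutation p 0.129). Within the 4 Klebsiella mice the r of this mean with Igha was 0.999, and within the 4 Lactobacillus mice 0.982. The list includes genes that epithelial cells also express at a high level. Among them are Sdc1, which encodes syndecan-1, and Xbp1, the transcription factor of secretory cells. Xbp1 averaged 241 ± 18.4 FPKM in Klebsiella and 185 ± 20.9 FPKM in Lactobacillus recipients (SD over n = 4 each, log2 difference 0.38, limma adjusted p 0.774). Xbp1 had the smallest unadjusted limma p of its list. It was higher in every Klebsiella mouse (218 to 262 FPKM) than in any Lactobacillus mouse (165 to 211 FPKM), where 2.99% of all genes had separate groups. Over the 16 single genes, r with Igha ran between -0.24 for Txndc5 and 0.962 for Tnfrsf13b, given as a description.

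Mzb1, which encodes a chaperone of plasma cells that helps IgM and IgA assembly, was at 9.80, 11.8, 12.1 and 29.2 FPKM in Klebsiella mice 1 to 4 and at 16.3, 32.3, 13.8 and 17.0 in Lactobacillus mice 1 to 4. It was high in Klebsiella mouse 4 and in Lactobacillus mouse 2, the leading Igha mice of their groups. Among 12893 genes other than immunoglobulins, the 5 with the highest r to Igha over the 8 mice were Tnfrsf13b (0.962), Tmem154 (0.947), Psmb8 (0.939), Irf4 (0.932) and Selplg (0.926). Tnfrsf13b encodes TACI, a receptor for the survival factors BAFF and APRIL, and Irf4 is a transcription factor required for plasma cells. Tnfrsf13b was at 4.77, 5.30, 4.12 and 12.6 FPKM in Klebsiella and at 6.87, 10.6, 5.09 and 6.20 in Lactobacillus mice. These genes were picked for their likeness over 8 mice, so r is a description here.

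Markers of other cell types varied beside Igha. The 8 smooth muscle genes summed to 2490, 2899.6, 3666 and 962 FPKM in Klebsiella mice 1 to 4 and to 2384, 1409, 1772 and 2055 in Lactobacillus mice 1 to 4. The lowest muscle sum was in Klebsiella mouse 4 and the highest in Klebsiella mouse 3, the mice with the highest and the lowest Igha. Over the 8 single muscle genes, r with Igha ran between -0.95 for Acta2 and -0.87 for Des, given as a description. These were about as far from 0 as the highest r of the plasma cell genes, with the opposite sign. All 8 muscle genes were positive between the groups (median 0.28) and 0 were called, and none was at 0 in any mouse. The median was -0.054 without Klebsiella mouse 3 and Lactobacillus mouse 2, and between 0.097 and 0.70 with any 1 mouse left out. The 12 B cell genes summed to 79.2, 103, 38.9 and 89.7 FPKM in Klebsiella and to 82.4, 100.02, 41.6 and 101 in Lactobacillus mice. Klebsiella mouse 3 and Lactobacillus mouse 3 were the lowest for B cells, and Klebsiella mouse 4 was not the highest. Of the B cell genes 6 were positive and 6 negative (median -0.0016) and 0 were called. Cd79a, a signalling chain of the B cell receptor, averaged 15.2 ± 5.73 FPKM in Klebsiella and 14.6 ± 4.07 FPKM in Lactobacillus recipients (SD over n = 4 each). The part of muscle and of B cells in the Igha levels was not tested.

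Pigr had the narrowest range of the set and was lower in every Klebsiella mouse. It was at 2333, 2503, 2490.4 and 2591 FPKM in Klebsiella mice 1 to 4 and at 2744, 3076, 3084 and 2943 in Lactobacillus mice 1 to 4. The groups did not overlap, with the highest Klebsiella mouse below the lowest Lactobacillus mouse, and the whole range over the 8 mice was 1.32-fold. The mean was 2479 ± 107 FPKM in Klebsiella and 2962 ± 159 FPKM in Lactobacillus recipients (SD over n = 4 each). The difference was -0.26 on the log2 scale (SE 0.116, 95% interval -0.52 to 0.0070, limma adjusted p 0.774), which did not pass the threshold. Of all 16865 genes, 1.8% were likewise lower in every Klebsiella mouse. The difference lay between -0.29 and -0.23 when any 1 mouse was left out.

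**Figure D5:**
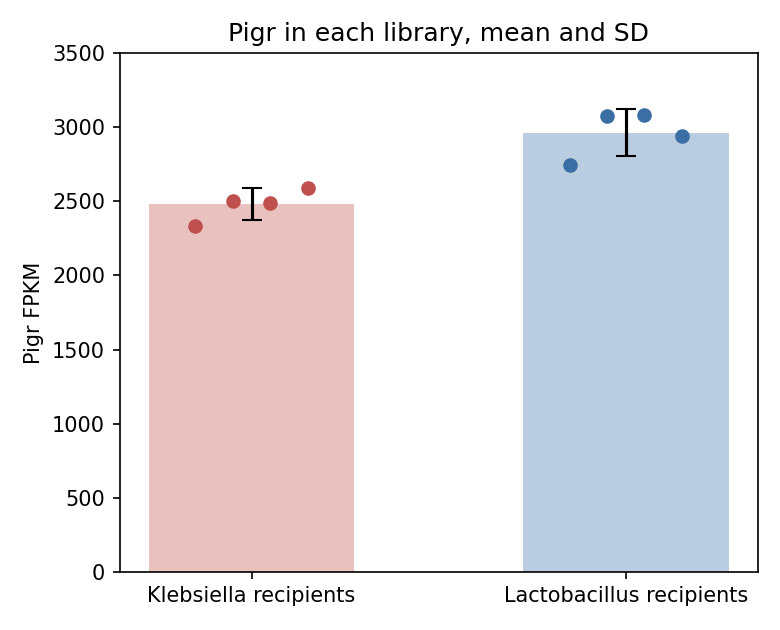
Pigr in FPKM, with 1 point for each mouse, bars at the group mean and error bars of 1 SD (n = 4 each). The 4 Klebsiella points lie between 2333 and 2591 FPKM, below the 4 Lactobacillus points between 2744 and 3084.

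A relation of Pigr to Igha transcript was not detected, and IgA protein, which the receptor binds, was not measured. The r of Pigr with Igha was 0.312 (exact permutation p 0.458) and rho 0.619 (exact permutation p 0.115), and r was 0.570 without the far mice (exact permutation p 0.238). In Klebsiella mouse 4, where Igha was at 3932 FPKM, Pigr was at 2591. In Klebsiella mouse 3, where Igha was at 882, Pigr was at 2490.4. Set against 10 epithelial genes, as log2 Pigr minus the mean of their log2 values, Pigr was at 2.11, 2.12, 2.19 and 2.18 in Klebsiella mice 1 to 4 and at 2.30, 2.63, 2.68 and 2.77 in Lactobacillus mice 1 to 4. The groups did not overlap in this ratio. The difference of -0.44 had an exact permutation p of 0.0286, the smallest that 4 against 4 mice allow (adjusted p 0.229 over 8 shares and ratios). The ratio holds the same Pigr values, so it is no second, independent result. The mean log2 of the epithelial genes was 9.12 in Klebsiella and 8.94 in Lactobacillus recipients, which widened the difference. How many of all genes separate when set against this list was not counted.

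The epithelial genes themselves leaned the other way. Of the 10, 7 were positive and 3 negative (median 0.15), and 0 were called. Krt18, a keratin of simple epithelia, was at 488, 415, 245 and 399 FPKM in Klebsiella mice 1 to 4 and at 313, 224, 241 and 207 in Lactobacillus mice 1 to 4 (log2 difference 0.62, limma adjusted p 0.774). Cdx2, the intestinal homeobox factor, averaged 65.3 ± 20.1 FPKM in Klebsiella and 40.4 ± 16.9 FPKM in Lactobacillus recipients (SD over n = 4 each; log2 difference 0.73, limma adjusted p 0.774). Lgals4, a galectin of enterocytes, had a lower mean in Klebsiella recipients with overlapping groups, at 3293 ± 250.3 FPKM against 3855 ± 328 FPKM in Lactobacillus recipients (SD over n = 4 each; log2 difference -0.23, limma adjusted p 0.774). Over the 8 mice, r between Pigr and the mean of the 10 epithelial genes was -0.706 (exact permutation p 0.0490, adjusted p 0.0588) and rho was -0.548 (exact permutation p 0.171). Within the 4 Klebsiella mice r was 0.753 and within the 4 Lactobacillus mice -0.542, of opposite sign, and without Lactobacillus mice 2 and 3, farthest from the median of Pigr, it was -0.662 (exact permutation p 0.188).

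Fat markers also differed between the mice in the order of the groups. The 6 fat genes summed to 2.33, 19.2, 12.5 and 20.96 FPKM in Klebsiella mice 1 to 4 and to 42.7, 27.2, 61.1 and 255 in Lactobacillus mice 1 to 4, with no overlap. All 5 fat genes tested were negative (median -2.01), each with an unadjusted limma p under 0.05, where 6.07% of all genes passed. They varied together between the mice and are not independent of each other, and 0 were called after adjustment. Plin1, which coats fat droplets, was listed at 0 in Klebsiella mouse 1, and Lep, which encodes leptin, in Klebsiella mice 1, 2 and 3. The part of fat in the Pigr difference was not tested. The pancreatic enzyme genes, 8 tested, were negative for 7 and positive for 1 (median -0.30) and 0 were called. They summed to 1115 FPKM in Klebsiella mouse 2 and 334 in Lactobacillus mouse 3, against at most 7.75 in the other 6, and 4 of them were at 0 in some mice.

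The 250 bases before the annotated start of Pigr are shown because they hold an E-box, CACGTG, a palindromic element that an upstream stimulatory factor is known to bind in the human PIGR promoter. The stretch lies at chr1:130826434-130826683 on the plus strand (RefSeq, GRCm38.p6), and capitals mark the E-box, whose first base is at -71 from the start.
Pigr: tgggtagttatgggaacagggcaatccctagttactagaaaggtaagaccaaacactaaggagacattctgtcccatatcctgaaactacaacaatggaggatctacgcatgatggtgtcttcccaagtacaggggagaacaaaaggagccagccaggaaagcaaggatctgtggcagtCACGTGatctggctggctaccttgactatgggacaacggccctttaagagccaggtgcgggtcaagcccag

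Of 32851 RefSeq promoter windows, 6.02% hold the same E-box on either strand. The letters of an interferon element (in 2.98% of windows), an NF-kB site (in 0.98%) and a TATA box (TATAAA, in 12.4%) were searched on both strands and were not found in the Pigr window. In human epithelial cell lines the gene is known to respond to interferon-gamma, tumour necrosis factor, interleukin 17 and interleukin 4. Of 12 genes of these pathways tested, 8 were positive and 4 negative (median 0.11), and 0 were called. Il4ra, a chain of the interleukin 4 receptor, was at 17.4, 23.7, 20.7 and 19.1 FPKM in Klebsiella mice 1 to 4 and at 14.1, 18.1, 14.5 and 15.1 in Lactobacillus mice 1 to 4, with overlapping groups (log2 difference 0.37, limma adjusted p 0.774). Tnfrsf1a, a receptor for tumour necrosis factor, averaged 120 ± 20.01 FPKM in Klebsiella and 92.6 ± 18.4 FPKM in Lactobacillus recipients (SD over n = 4 each; log2 difference 0.38, limma adjusted p 0.774). The cytokine genes Il17a and Ifng were below the filter and at 0 in some mice.

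Among the genes that move vesicles in polarised cells, which transcytosis needs, 4 of 11 were positive and 7 negative (median -0.061) and 0 were called. Rab25, a GTPase of epithelial recycling endosomes, averaged 246 ± 29.1 FPKM in Klebsiella and 261 ± 25.2 FPKM in Lactobacillus recipients (SD over n = 4 each). Over the 8 mice the 5 genes with the highest r to Pigr were Ndufv3 (0.958), Cep57 (0.956), Snhg20 (0.955), Wdr24 (0.953) and Hdhd5 (0.952), among the same 12893 genes. Each of them spanned at most 1.95-fold, and r over so narrow a range is a description.

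Of the signals that draw plasma cells to the gut, 2 of 9 tested genes were positive and 7 negative (median -0.094), and 0 were called. Ccl28, the epithelial chemokine that attracts IgA plasma cells through Ccr10, was at 41.5, 35.1, 27.6 and 41.9 FPKM in Klebsiella mice 1 to 4 and at 43.7, 43.8, 48.1 and 60.2 in Lactobacillus mice 1 to 4. Ccl28 had the smallest unadjusted limma p of its list. In the deposited FPKM it was lower in every Klebsiella mouse than in any Lactobacillus mouse, where 1.8% of all 16865 genes were. The gap was thin, between 41.9 and 43.7 FPKM. Median-of-ratios scaling, with factors of 0.966 for Klebsiella mouse 4 and 1.04 for Lactobacillus mouse 2, puts the first above the second, so the groups then overlap. Its log2 difference of -0.42 did not pass adjustment (SE 0.157, limma adjusted p 0.774). Ccr10 was at 2.20 ± 0.623 FPKM in Klebsiella and 2.95 ± 0.666 FPKM in Lactobacillus recipients (SD over n = 4 each). Of the signals for class switching and plasma cell survival, 3 of 8 tested were positive and 5 negative (median -0.093), and 0 were called. Tnfsf13b, which encodes the survival factor BAFF, averaged 4.09 ± 0.279 FPKM in Klebsiella and 5.16 ± 0.748 FPKM in Lactobacillus recipients (SD over n = 4 each; log2 difference -0.29, limma adjusted p 0.774).

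Of the other receptors that bind antibody, 1 of 9 tested was positive and 8 were negative (median -0.11), and 0 were called. Fcamr, a receptor for IgA and IgM, was at 3.46, 4.43, 4.402 and 3.09 FPKM in Klebsiella mice 1 to 4 and at 4.59, 6.08, 4.93 and 7.78 in Lactobacillus mice 1 to 4. Fcamr had the smallest unadjusted limma p of its list. Its groups did not overlap, where 2.99% of all genes had separate groups, and the log2 difference was -0.53 (SE 0.191, limma adjusted p 0.774). Fcgrt, the neonatal receptor that carries IgG, averaged 65.6 ± 10.05 FPKM in Klebsiella and 70.8 ± 12.2 FPKM in Lactobacillus recipients (SD over n = 4 each). B2m, its light chain, averaged 615 ± 154 FPKM in Klebsiella and 622 ± 146 FPKM in Lactobacillus recipients (SD over n = 4 each). The 8 T cell genes had 3 positive and 5 negative differences (median -0.076), with 0 called.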

How the data were processed

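Per the labels' protocols, total RNA was taken with Trizol from frozen intestine and sequenced after an Illumina TruSeq preparation. The submitters' processing notes list STAR 2.5.1b, HTSeq 0.6.0, CASAVA and DESeq2 1.10.1 without saying what each did; neither build nor annotation is given in the sources used here. Per gene, the authors deposited FPKM values, and per library a table of read counts (between 40455910 and 55447220 filtered reads). Symbols came from GENCODE M21 for 49326 identifiers; 259 had none. Fragment counts were recovered from FPKM as whole numbers (tolerance 0.0001) for all 26963 genes that exceeded 0 in 2 or more libraries, 21660 of them with the mean annotated transcript length. On simulated data 98.37% of 736 genes came back exactly. For Ighg2b and Ighg3 the authors' length is not that mean, so the smallest whole fragment counts were used.

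Values were analysed as log2(FPKM + 0.5) for 16865 genes averaging 0.5 FPKM or more, which understates changes of low genes. Groups were compared with limma 3.58.1 (mean-variance trend, two-sided, Benjamini-Hochberg, threshold 0.05) in R 4.3.3, tested on simulated data. Single values used exact permutation tests over 70 assignments, and relations 40320 pairings (Python 3.11.15, scipy 1.17.1). Lambda genes were aligned with mafft 7.526. Replicates are separate mice per the labels. The named genes were the 10 of the set, the 2 most abundant and the 2 of smallest p from each of 13 lists, and 5 genes most like Igha and 5 most like Pigr among those with a mean FPKM of at least 1, and the text gives some of these; Mzb1, Txndc5, Il17a, Ifng, Lep and Iglv1 were added after values were seen. Members and lists were chosen with earlier results of these data known. Alternatives were pseudocounts, filters, rescalings, a mouse number block, an epithelial covariate and libraries left out. Secreted-form lengths and voom were added after seeing the data.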

Additional observations from a re-analysis of the deposited data

Results flagged for a closer look

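Of 46 groups of 4 mice looked at for 1 value far from the others, 7 were flagged, where chance flags about 1 in 20. Klebsiella mouse 4 stood far above the other Klebsiella mice in 6 of them. These were Igha at 3932 FPKM, Igkc at 7180.5 FPKM, Jchain at 935 FPKM, Ighg2c at 10.46 FPKM, the log2 of summed antibody FPKM at 13.46, and the log2 of Igha over the mean of the plasma cell list at 7.58. These 6 share the same transcripts and the same mouse and are not independent. Klebsiella mouse 3 stood above its group for Ighg1, at 58.2 FPKM. The gap took 0.948 of the group's range for Jchain and 0.834 for Ighg1. Klebsiella mouse 4 also had the lowest summed FPKM of smooth muscle genes, at 962, against 2490 to 3666 in the other Klebsiella mice; its part in these values was not tested.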

How the results depend on the processing

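All 10 log2 differences missed the limma threshold under each of the alternatives run, with 0 genes called by limma in each fit over all genes; the smallest adjusted p over all genes ranged between 0.332 and 0.985. Of the alternative values that answer a comparison, 196 kept direction and side of the threshold, 8 turned in direction and 1 no longer passed. Of those of single genes and lists, 439 kept them, 13 turned and 7 moved. Beside these counts, the relations of Igha to Ighm and to the plasma cell list no longer passed without Klebsiella mouse 4 and Lactobacillus mouse 2 (exact permutation p 0.153 and 0.129). By rank, the plasma cell list did not pass over all 8 mice either (rho 0.690, exact permutation p 0.0694). Without Klebsiella mouse 3 and Lactobacillus mouse 2, chosen because Hoxb6 was high there in an earlier analysis, the log2 difference turned to 0.14 for Igha, 0.064 for Ighm, 0.22 for Ighg2b, 0.035 for Igkc, 0.28 for Jchain and 0.076 for summed antibody, and the share difference to 0.38 points for Igha and -0.35 for IgG. List medians turned there too, to 0.17 for plasma cells, 0.33 for B cells, 0.15 for class switching and survival, 0.22 for T cells and -0.054 for smooth muscle. With an epithelial covariate Ighg1 turned to 0.14. With each mouse left out in turn, the log2 difference ranged between -0.32 and 0.092 for Ighg1, -0.15 and 0.68 for Iglc2, and -0.57 and 0.095 for Jchain, and turned to 0.068 for Ighg1 without Klebsiella mouse 1. Jchain turned to 0.0019 and 0.058 without Klebsiella mice 2 and 3, and Iglc2 to -0.051 without Lactobacillus mouse 1. The share difference ranged between -1.56 and 0.31 points for Igha, -0.19 and 0.18 for Ighm and -0.36 and 1.38 for IgG. Without Klebsiella mouse 4, the relation of Igha to Ighm had r 0.757 (exact permutation adjusted p 0.0747, range of r 0.757 to 0.898 over mice left out). The cause was not tested.

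Same-numbered mice had correlated deviations of 0.189, -0.10, -0.059 and -0.16 for numbers 1 to 4. The highest correlation with a mouse of another number was 0.103, 0.053, 0.189 and 0.171. Only number 1 matched its own number best, so the values do not show pairing by mouse number and cannot settle it. With the mouse number as a block, limma called 0 genes (smallest adjusted p 0.797) and the Pigr difference stayed at -0.26. At an unadjusted limma p under 0.05, 430 genes were higher and 594 lower in Klebsiella, against 592 and 425 with a constant total and 492 and 477 with median-of-ratios scaling. Depth limits Ighg2c and Ighg3, from 7 to 211 fragments. Tests of 3 against 4 mice cannot go below an exact p of 0.0571. Ighg3 has no value under a filter at a mean FPKM of 2.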
